A study of Mus musculus with 12 samples.

Results

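A set of 10 transcripts that keep B cells alive or guide lymphocytes into lymphoid tissue were followed in mouse lungs recovering from lipopolysaccharide (LPS). The genes are the ligands BAFF (Tnfsf13b) and APRIL (Tnfsf13), the receptors BAFF-R (Tnfrsf13c) and TACI (Tnfrsf13b), the chemokines Cxcl13, Ccl19 and Ccl21a, the chemokine receptors Cxcr5 and Ccr7, and lymphotoxin beta (Ltb). They were chosen by gene name for these roles, are 10 of the 55414 genes in the table, and all 10 were among the 15148 genes tested. No member passed the test for a difference between genotypes, but the members fell into different patterns. The B cell receptors Tnfrsf13c and Cxcr5 had lower medians in lungs of mice bred to lose Il10 in B cells (IL-10 B-KO, the knockout) than in those of IL-10 B-WT mice (the control), and 4 of 6 knockout lungs were under all control lungs for both genes. For the other BAFF receptor, Tnfrsf13b, and for the ligands, those 4 lungs did not all lie under all control lungs. For Ccr7, all knockout lungs lay within the control range.

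RNA was taken from the whole lungs of 12 mice on day 4 of LPS exposure, 6 of the genotype labelled IL-10 B-WT and 6 labelled IL-10 B-KO. In IL-10 B-KO mice, Il10 flox/flox alleles were combined with Mb1-Cre, a Cre inserted at the Cd79a (mb1) gene, which drives it in the B lineage and is disrupted on the allele carrying it, so that the deletion is aimed at B cells. All 12 mice received LPS and, by the study's methods, had a C57BL/6J background. No lung without LPS was analysed here, the alleles carried by IL-10 B-WT mice are not given in the sources used here, and neither are the age and sex of the mice.

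BAFF and APRIL are TNF family ligands made largely by myeloid and stromal cells. BAFF-R binds BAFF alone and carries the survival signal of mature B cells, whereas TACI binds both ligands and is found on B cell subsets and plasma cells. CXCL13 draws cells with CXCR5, chiefly B cells and follicular helper T cells, into follicles, while CCL19 and CCL21 draw cells with CCR7, chiefly naive T cells and mature dendritic cells. Lymphotoxin beta, made by lymphocytes, pairs with lymphotoxin alpha on the cell surface and acts on stromal cells that make these chemokines.

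The promoters of the receptors Tnfrsf13c and Tnfrsf13b are shown because these genes had different orders over the lungs, and those of Cxcl13 and Ltb because these were the members whose window held a searched motif. Each sequence comes from RefSeq on GRCm38.p6 and runs 5′ to 3′ on the gene's strand, from 250 bases before the start site to 50 bases from it. Capitals mark a TATAAA box in Cxcl13, 46 to 41 bases before the start site, and an NF-kB match on the opposite strand in Ltb, 87 to 78 bases before it. The windows are chr15:82224331-82224630 (minus strand) for Tnfrsf13c, chr11:61126505-61126804 (plus) for Tnfrsf13b, chr5:95956689-95956988 (plus) for Cxcl13 and chr17:35194257-35194556 (plus) for Ltb.
Tnfrsf13c: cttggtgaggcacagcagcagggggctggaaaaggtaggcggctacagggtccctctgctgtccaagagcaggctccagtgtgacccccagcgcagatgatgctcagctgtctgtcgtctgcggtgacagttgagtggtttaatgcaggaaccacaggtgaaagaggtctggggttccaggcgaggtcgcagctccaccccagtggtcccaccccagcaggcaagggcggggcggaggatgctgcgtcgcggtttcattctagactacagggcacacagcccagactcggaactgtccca
Tnfrsf13b: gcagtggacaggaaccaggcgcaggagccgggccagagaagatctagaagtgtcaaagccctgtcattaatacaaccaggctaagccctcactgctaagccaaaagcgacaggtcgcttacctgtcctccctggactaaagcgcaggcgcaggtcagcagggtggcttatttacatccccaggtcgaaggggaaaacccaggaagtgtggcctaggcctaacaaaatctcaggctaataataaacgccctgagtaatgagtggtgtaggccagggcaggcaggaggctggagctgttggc
Cxcl13: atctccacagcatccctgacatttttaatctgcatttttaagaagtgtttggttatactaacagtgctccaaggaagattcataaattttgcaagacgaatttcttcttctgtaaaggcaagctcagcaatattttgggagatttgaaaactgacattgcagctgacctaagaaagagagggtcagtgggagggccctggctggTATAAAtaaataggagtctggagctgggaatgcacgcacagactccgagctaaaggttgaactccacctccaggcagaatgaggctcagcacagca
Ltb: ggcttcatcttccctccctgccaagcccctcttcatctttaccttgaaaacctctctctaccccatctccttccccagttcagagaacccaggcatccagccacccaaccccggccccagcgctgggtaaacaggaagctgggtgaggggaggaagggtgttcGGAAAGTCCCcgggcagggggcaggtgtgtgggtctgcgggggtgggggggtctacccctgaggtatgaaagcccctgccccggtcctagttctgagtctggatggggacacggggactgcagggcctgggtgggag

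On both strands of 32851 promoter windows of this length, TATAAA occurred in 13.6% and the NF-kB motif in 4.51%. The octamer ATGCAAAT occurred in 1.74%, the EBF1 motif (TCCC and GGGA parted by any 2 bases) in 0.904% and the PU.1 motif GAGGAAGT in 3.2%, and none of these 3 was present in the windows of the 8 members found in the RefSeq table. Windows for Cxcr5 and Ccr7 were not analysed here.

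Expression was deposited as TPM, a level per transcript length in a library of fixed total, so that genes can be set side by side. TPM keep no depth. How many reads stand behind a value cannot be known, and precision rests on the spread between lungs. Each library summed to between 991646 and 994430 TPM and had 21380 to 24138 genes above 0. Differences between genotypes are knockout minus control in mean log2(TPM + 1), with a standard error (SE). The added 1 understates the change of genes at low levels. A gene was called when its adjusted p (limma, Benjamini-Hochberg over all genes tested) was at most 0.05 and its log2 fold change was at least 1 in size. The lung was recognisable in every library, with 8 lung markers summing to between 22658 and 112446 TPM. These sums rest largely on Scgb1a1 (medians of 45584.7 TPM in control and 17534.8 TPM in knockout lungs) and Sftpc (10949.2 and 11062.5 TPM). Il10 lay between 0 and 0.88 TPM in control lungs and between 0 and 0.58 TPM in knockout lungs, so that it could not check the genotype in whole lung, but Cd79a, the gene that drives Cre, was lower in every knockout lung (0 to 5.73 TPM) than in every control lung (15.3 to 258.64 TPM).

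Of the members, 0 of 10 were called, beside 0.495% of all genes tested (0.469% lower and 0.0264% higher in knockout lungs). Without a minimum fold change the members' count was also 0, beside 0.522% of all genes. At an unadjusted p of at most 0.05, 3 of 10 members passed by limma, beside 12.5% of all genes. These were Tnfrsf13c and Cxcr5 among the lower (5.71% of all genes) and Tnfsf13 among the higher (6.83%). Both genotypes overlapped for all 10 members, while 1.02% of all genes tested did not overlap. Of the members, 6 had a lower and 4 a higher mean log2(TPM + 1) in knockout lungs, and their median log2 fold change was -0.09, compared with 0.10 over all genes tested.

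**Figure D1:**
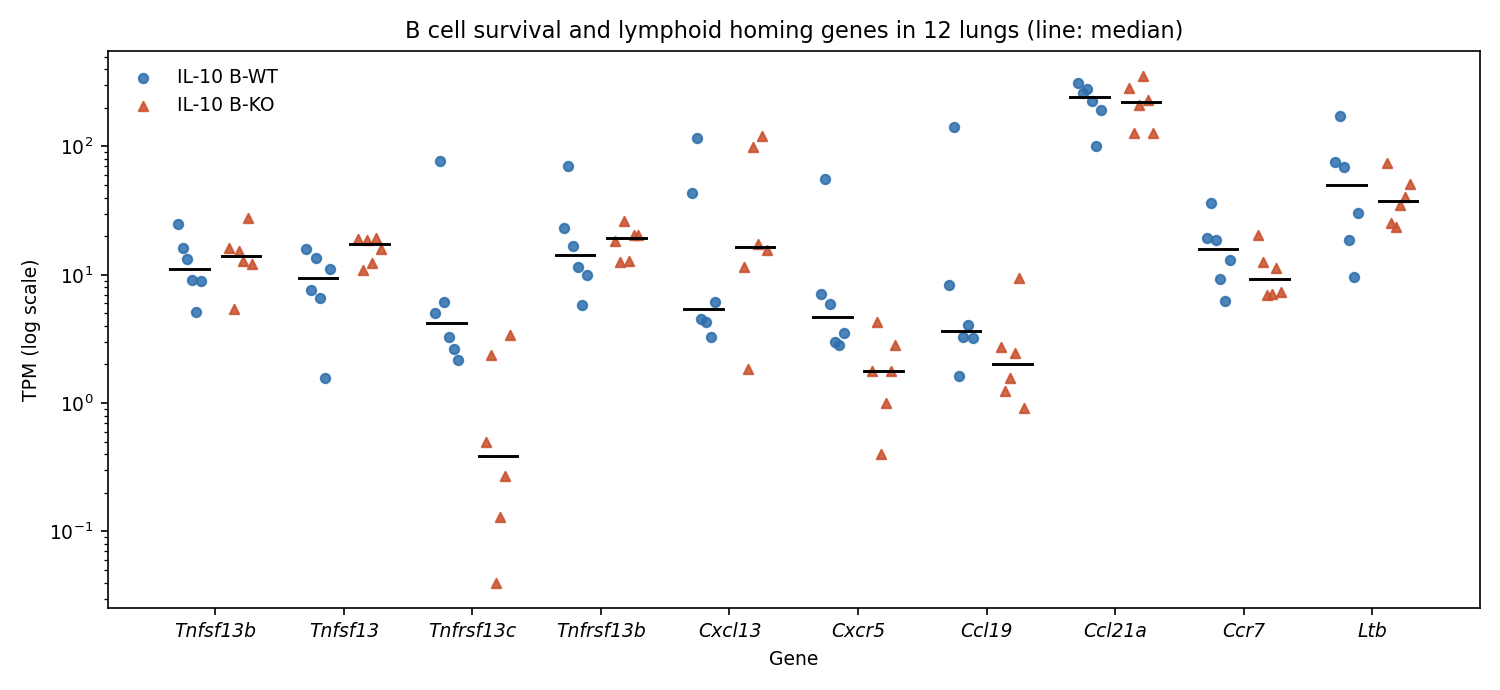
Level of each of the 10 members in each of the 12 lungs, by genotype, in TPM on a log axis. The genotypes overlap for every member, Tnfrsf13c and Cxcr5 lie lower in most knockout lungs, and 1 control lung (replicate 2) lies far above the others for Tnfrsf13c (76.73 TPM), Cxcr5 (56 TPM) and Ccl19 (141.29 TPM).

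BAFF, the survival ligand of mature B cells, had overlapping levels in both genotypes. Tnfsf13b (chromosome 8, 10006467 to 10039072, plus strand, GRCm38) ranged from 5.09 through a median of 11.2 to 25.01 TPM in control lungs and from 5.44 through 14.1 to 27.54 TPM in knockout lungs. The ranges covered nearly the same span, and the lowest and highest lungs of both genotypes lay side by side. With a log2 fold change of 0.22 (SE 0.37, 95% interval -0.59 to 1.02), the adjusted p was 0.811 by limma. The interval allows a change of up to about 1 log2 unit, so that equal levels were not shown.

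APRIL, which acts through TACI and the plasma cell receptor BCMA, had the higher mean in knockout lungs. Tnfsf13 (chromosome 11, 69682846 to 69685784, minus strand) ranged from 1.58 through 9.37 to 16 TPM in control lungs and from 10.89 through 17.4 to 19.27 TPM in knockout lungs. In knockout mice, 3 lungs (replicates 1, 3 and 5) lay above every control lung, and control replicate 5 lay far below the rest. The means were 9.38 ± 5.20 and 16.0 ± 3.68 TPM (SD, n = 6 each), and the log2 fold change was 0.91 (SE 0.38), with an adjusted p of 0.363 by limma. An exact permutation test of the difference in mean log2(TPM + 1), two-sided and unadjusted, gave p = 0.0368, and 0.0736 without control replicate 2. Without control replicate 5 the log2 fold change was 0.55, and with array weights it was also 0.55.

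Tnfsf13 overlaps on the same strand with a readthrough gene, Tnfsfm13, that joins it to the neighbouring Tnfsf12, and an antisense gene lies across it. How reads were divided among them is uncertain. Tnfsfm13 itself was listed at 18.69 to 29.24 TPM in control lungs and 16.51 to 28.43 TPM in knockout lungs, and did not share the order seen for Tnfsf13. Neutrophil transcripts had the same direction as Tnfsf13: all 9 genes of a marker list had the higher mean in knockout lungs, and their sum ranged from 289 to 2574 TPM in control and from 1058 to 7750 TPM in knockout lungs. All 11 genes of a list for monocytes and interstitial macrophages also had the higher mean, with sums of 189 to 2526 and 436 to 3345 TPM. None of these 20 genes was called. At an unadjusted limma p of at most 0.05, 9 of the neutrophil genes and 10 of the monocyte and macrophage genes were higher, beside 6.83% of all genes. The part of these 20 genes in the level of Tnfsf13 was not tested. In whole lung, more or fewer cells of a type and more or less RNA per cell cannot be told apart.

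BAFF-R had the largest difference in mean log2(TPM + 1) among the members. Tnfrsf13c (chromosome 15, 82221743 to 82224369, minus strand) ranged from 2.16 through 4.18 to 76.73 TPM in control lungs and from 0.04 through 0.385 to 3.42 TPM in knockout lungs. In knockout mice, 4 lungs, at 0.04, 0.13, 0.27 and 0.5 TPM, lay below every control lung, whereas replicates 2 and 6, at 2.35 and 3.42 TPM, lay within the control range. The log2 fold change was -2.05 (SE 0.69, 95% interval -3.53 to -0.56) with an adjusted p of 0.295 by limma, and an exact permutation test, two-sided and unadjusted, gave p = 0.0152. Control replicate 2 raised the mean of its group to 16.0 ± 29.8 TPM (SD, n = 6). Without that lung the mean was 3.85 ± 1.68 TPM (SD, n = 5), the log2 fold change was -1.37 (SE 0.40), the limma adjusted p was 0.279 and the exact permutation p was 0.0303.

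TACI did not follow BAFF-R. Tnfrsf13b (chromosome 11, 61126755 to 61149372, plus strand) ranged from 5.82 through 14.1 to 70.89 TPM in control lungs and from 12.56 through 19.4 to 26.07 TPM in knockout lungs. All 6 knockout lungs lay inside the control range, 4 of the control lungs lay below the knockout median, and the highest value was again control replicate 2. Its log2 fold change was 0.10 (SE 0.45) with an adjusted p of 0.931 by limma. Without control replicate 2 it was 0.51 (unadjusted exact permutation p = 0.165). Its sign also turned under other scalings, given with the processing alternatives.

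The BAFF receptors were also set against each other within each lung, as a description with no test, since this and the 4 other pairs of a receptor and its partner were chosen after the levels had been seen. Within a lung, log2(TPM + 1) of Tnfrsf13c minus that of Tnfrsf13b was -1.24 ± 0.77 (SD, n = 6) in control and -3.39 ± 1.04 (SD, n = 6) in knockout lungs. The lowest control lung was at -2.005 and the highest knockout lung at -2.017, so that the groups were parted by far less than their spread. The difference in means was -2.15, and -1.88 without control replicate 2.

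Set against its own ligand, Tnfrsf13c minus Tnfsf13b was -0.76 ± 1.52 in control and -3.02 ± 1.42 in knockout lungs (SD, n = 6 each). Of the knockout lungs, 4 lay below every control lung. The difference in means was -2.26, and -1.68 without control replicate 2.

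**Figure D2:**
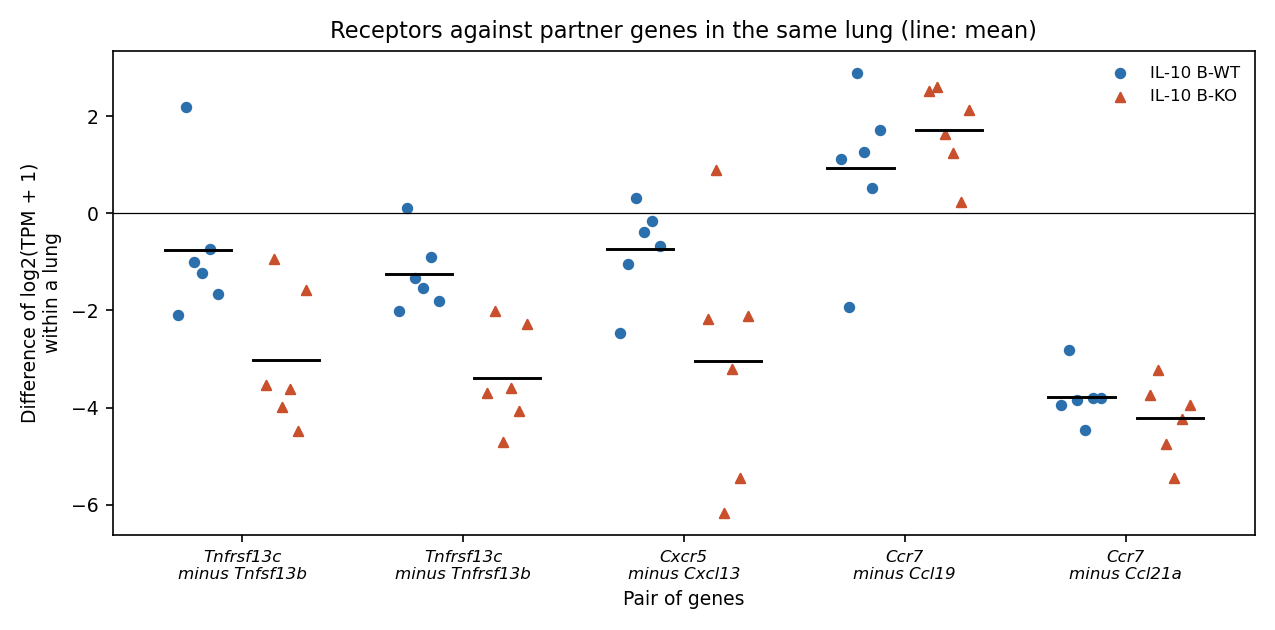
Difference in log2(TPM + 1) between a receptor and its ligand or fellow receptor within each lung, by genotype, for the 5 pairs compared (points are lungs), with no test. Of these pairs, only for Tnfrsf13c minus Tnfrsf13b do all 6 knockout lungs lie below all 6 control lungs.

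Cxcr5, the receptor that leads B cells to follicles, was low in the same lungs as Tnfrsf13c. Cxcr5 (chromosome 9, 44511787 to 44561877, minus strand) ranged from 2.82 through 4.72 to 56 TPM in control lungs and from 0.4 through 1.78 to 4.27 TPM in knockout lungs. The knockout replicates below every control lung were 1, 3, 4 and 5, the same 4 lungs as for Tnfrsf13c, and replicates 2 and 6 again lay within the control range. The log2 fold change was -1.49 (SE 0.58, 95% interval -2.75 to -0.24) with an adjusted p of 0.342 by limma, and an exact permutation test, two-sided and unadjusted, gave p = 0.0173. Without control replicate 2 the log2 fold change was -0.92 (SE 0.33) and the exact permutation p was 0.0346.

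The summed level of B cell transcripts was low in the same lungs as both receptors, though not every gene was. Every one of the 12 genes in a B cell marker list had its lower mean in the knockout, and their median log2 fold change was -1.65. Of all 15148 genes tested, 5568 had a lower mean. Of the 12, 1 was called (Cd79a, adjusted p = 0.0222 by limma), beside 0.469% of all genes called lower. At an unadjusted limma p of 0.05 or less, 10 were lower, beside 5.71% of all genes. The summed level of the list ranged from 84.0 through 111 to 1149 TPM in control lungs and from 15.7 through 24.2 to 106 TPM in knockout lungs. Ms4a1 (CD20), a surface protein of B cells, was at 0.08 to 0.13 TPM in knockout replicates 1, 3, 4 and 5 and at 4.71 and 3.69 TPM in replicates 2 and 6. Fcer2a did not share this: replicates 1, 3, 4 and 5, at 4.74 to 6.88 TPM, lay within its control range (3.89 to 74.38 TPM). Blk lay below every control lung in knockout replicates 3, 4 and 5, but replicate 1, at 6.78 TPM, was above the control median of 6.26 TPM. The part of B cell number in Tnfrsf13c and Cxcr5 was not tested.

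**Figure D3:**
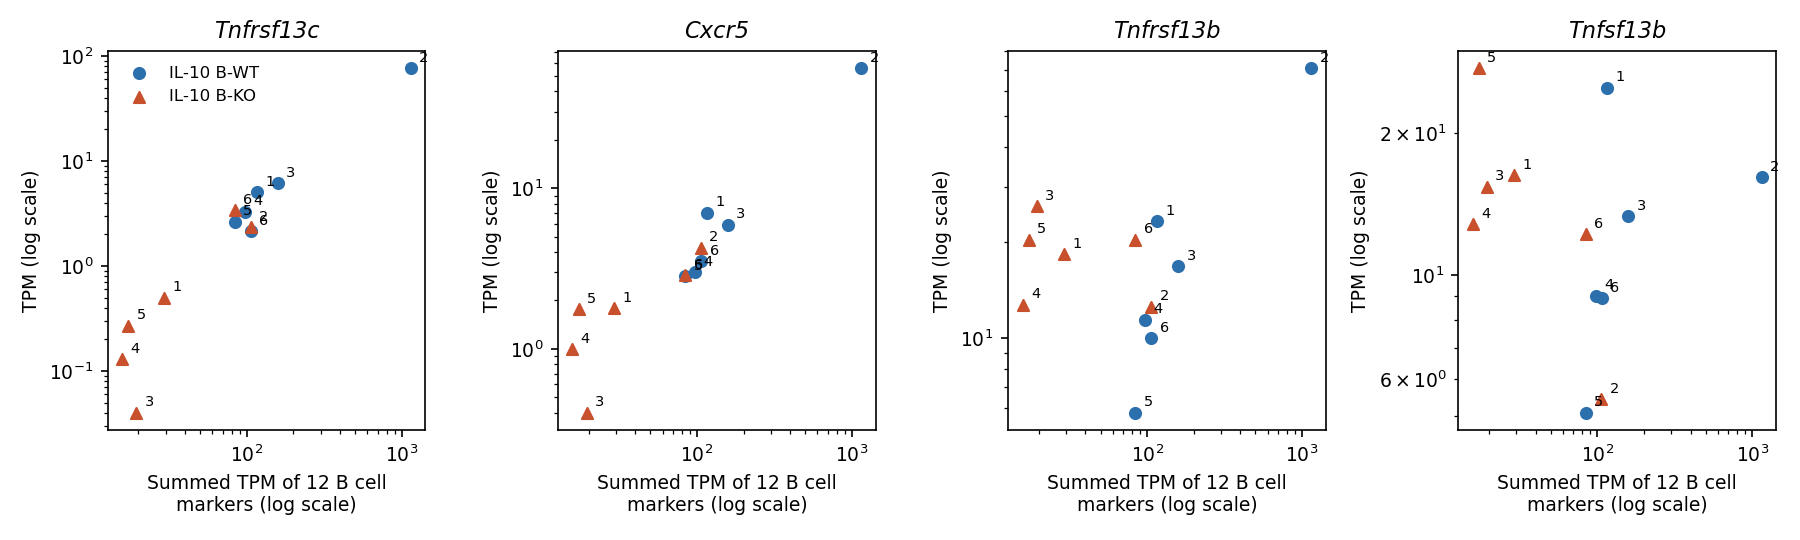
Level of Tnfrsf13c, Cxcr5, Tnfrsf13b and Tnfsf13b in each lung, numbered by replicate, against the summed level of the 12 B cell marker genes, both in TPM on log axes, by genotype. For Tnfrsf13c and Cxcr5 the 4 knockout lungs with the lowest marker sums are also the 4 lowest lungs, whereas for Tnfrsf13b and Tnfsf13b they are not.

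Across the 12 lungs, as a description, Tnfrsf13c and Cxcr5 had a Spearman's rho of 0.881 with each other, the highest of the 45 pairs of members. Tnfrsf13c had a rho of 0.15 with Tnfrsf13b, -0.03 with Tnfsf13b and -0.41 with Tnfsf13. The genes whose order over the lungs was most like that of Cxcr5 were Fcrl1 and Ly6d (rho 0.972 each) and Cr2 (0.968), and those most like Tnfrsf13c were the immunoglobulin variable segments Ighv1-50 and Igkv1-117 (0.901 each) and Siglecg (0.888). For Tnfrsf13b they were Man1a and Sprr2a2 (0.986 each) and Btk (0.979). All genes share the same libraries and their totals, and the 12 points include both genotypes.

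Cxcl13, the ligand of Cxcr5, varied more between lungs of a genotype than between genotypes. Cxcl13 (chromosome 5, 95956951 to 95961068, plus strand) ranged from 3.27 through 5.37 to 115.71 TPM in control lungs and from 1.86 through 16.5 to 120.44 TPM in knockout lungs. In both genotypes 2 lungs stood far above the rest: control replicates 1 and 2 at 43.51 and 115.71 TPM, and knockout replicates 3 and 5 at 99.66 and 120.44 TPM. For Cxcl13 the log2 fold change was 0.81 (SE 1.00, 95% interval -1.35 to 2.97) with an adjusted p of 0.730 by limma. Without control replicate 2 it was 1.44 (unadjusted exact permutation p = 0.212). Without either of the high knockout lungs it was smaller, 0.38 without replicate 3 and 0.32 without replicate 5.

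The lungs with the most Cxcl13 were those with the most Cxcr5 among control lungs, but not among knockout lungs, a difference that was not tested. Control replicates 1 and 2, the highest of their group for the ligand, were also the highest for the receptor, at 7.04 and 56 TPM. Knockout replicates 3 and 5 had 0.4 and 1.77 TPM of the receptor, and of the 6 knockout lungs replicate 2 had the most Cxcr5 (4.27 TPM) and the least Cxcl13 (1.86 TPM). Across the 12 lungs their rho was -0.20. The within-lung difference Cxcr5 minus Cxcl13 was -0.73 ± 0.97 in control and -3.04 ± 2.55 in knockout lungs (SD, n = 6 each), and the groups overlapped. Cxcl13 had a rho of 0.818 with Tnfsf13b and 0.804 with Tnfrsf13b, and the genes most like it over the lungs were Gm6377 (0.972), Ccl20 (0.965), a chemokine for CCR6, and Dctd (0.944).

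Ccl19, a ligand of CCR7, was low in all but 1 lung. Ccl19 (chromosome 4, 42754525 to 42756577, minus strand) ranged from 1.63 through 3.66 to 141.29 TPM in control lungs and from 0.91 through 2.01 to 9.47 TPM in knockout lungs. The value of 141.29 TPM belonged to control replicate 2, and the other 11 lungs lay at or below 9.47 TPM. With all lungs the log2 fold change was -1.29 (SE 0.81) and the adjusted p 0.502 by limma. Without that lung the fold change was -0.47 on the log2 scale (unadjusted exact permutation p = 0.325). The same lung had 139.75 TPM of Glycam1, a ligand of L-selectin made by high endothelial venules, which lay between 0 and 0.97 TPM in the other 11 (a gene looked at after its values were seen).

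Ccl21a, the other CCR7 ligand and a product of lymphatic endothelium and lymphoid stroma, had the highest level of the 10 members in all 12 lungs. Ccl21a (chromosome 4, 42772860 to 42773993, minus strand) ranged from 99.98 through 243 to 312.09 TPM in control lungs and from 126.7 through 220 to 353.44 TPM in knockout lungs. The ranges overlapped almost wholly, and control replicate 2, at 258.87 TPM, did not stand out. For Ccl21a the log2 fold change was -0.05 (SE 0.31, 95% interval -0.73 to 0.62) with an adjusted p of 0.950 by limma.

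Ccl21a has near-identical copies, so that its reads cannot be assigned with certainty. Its transcript of 870 bases was aligned with each other one over the length of the shorter. It matched Ccl21b (402 bases) at 99.5% and Ccl21d (870 bases) at 99.3% of these positions, compared with 51.9% for Ccl19 (773 bases). Summed over the 3 Ccl21 genes, a measure added after the data were seen, the level was 305 ± 116 TPM in control and 315 ± 128 TPM in knockout lungs (SD, n = 6 each), with a log2 fold change of 0.05 and an adjusted p of 0.955 by limma. Of the 6 lymphatic endothelial markers tested, 0 were called and the median log2 fold change was -0.11.

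Ccr7, which brings T cells and mature dendritic cells to CCL19 and CCL21, had the lower mean in knockout lungs without passing the test. Ccr7 (chromosome 11, 99144196 to 99155077, minus strand) ranged from 6.23 through 15.7 to 36.19 TPM in control lungs and from 6.93 through 9.30 to 20.36 TPM in knockout lungs. All knockout lungs lay within the control range. Its log2 fold change was -0.50 (SE 0.37) with an adjusted p of 0.557 by limma. Without control replicate 2 it was -0.25. The within-lung differences to its ligands, knockout minus control, were 0.79 for Ccr7 minus Ccl19 and -0.45 for Ccr7 minus Ccl21a, and 0.22 and -0.25 without that lung.

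The summed marker lists of T cells and mature dendritic cells overlapped between genotypes. The summed T cell list ranged from 54.3 to 307 TPM in control and from 62.8 to 261 TPM in knockout lungs, with 0 of 12 tested genes called and a median log2 fold change of -0.24. Of these genes, 8 had a lower and 4 a higher mean in knockout lungs, compared with 5568 and 9580 of all 15148 genes tested. Only Lef1 had an unadjusted limma p of at most 0.05 (log2 fold change -1.01, adjusted p = 0.232 by limma). The mature dendritic cell list ranged from 77.8 to 257 TPM and from 156 to 251 TPM, with 0 of 9 called and a median of 0.20. The genes most like Ccr7 over the lungs were Tgif2 (rho 0.972), Cd83 (0.965), a marker of mature dendritic cells, and Haao (0.965). With Cxcr5, low in the same lungs as the summed B cell list, Ccr7 had a rho of 0.685. The part of any of these cells in the level of Ccr7 was not tested.

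Ltb, the lymphocyte ligand that maintains lymphoid stroma, was the second most abundant member by median in both genotypes. Ltb (chromosome 17, 35194439 to 35196320, plus strand) ranged from 9.61 through 49.7 to 171.72 TPM in control lungs and from 23.52 through 37.7 to 74.57 TPM in knockout lungs. The knockout lungs all lay within the wider control range, whose top was replicate 2 and whose bottom was replicate 5. Its log2 fold change was -0.12 (SE 0.57) with an adjusted p of 0.940 by limma, and 0.29 without control replicate 2, 1 of the 5 alternatives that turned its sign. The genes most like Ltb over the lungs were Tk2 (rho 0.972) and the T cell genes Gpr171 and Lat (0.965 each), and among members it was closest to Ccr7 (0.804).

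By median level, the order in control lungs was Ccl21a, Ltb, Ccr7, Tnfrsf13b, Tnfsf13b, Tnfsf13, Cxcl13, Cxcr5, Tnfrsf13c and Ccl19, and the ranges of all neighbours overlapped. In knockout lungs it was Ccl21a, Ltb, Tnfrsf13b, Tnfsf13, Cxcl13, Tnfsf13b, Ccr7, Ccl19, Cxcr5 and Tnfrsf13c, and only Ccl21a and Ltb, the top pair, had ranges that did not overlap. Tnfrsf13c, ninth in control lungs, was last in knockout lungs, where Cxcr5 exceeded it in 5 of 6.

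**Figure D4:**
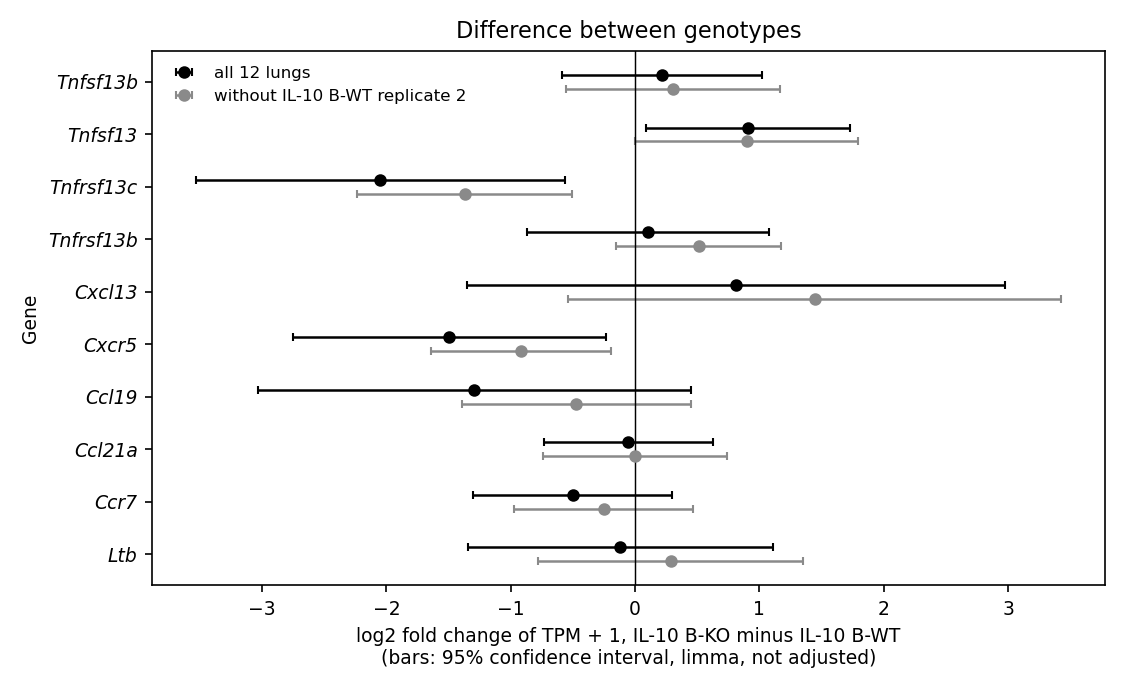
Log2 fold change (knockout minus control, mean log2(TPM + 1)) of each member with its 95% interval from limma, with all 12 lungs and without control replicate 2. The intervals of Tnfrsf13c and Cxcr5 lie below 0 both ways, the one of Tnfsf13 lies above 0 with all lungs, and the remaining intervals include 0.

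Control replicate 2 was the highest of its group for 7 members. It also had the highest summed level of the B cell list (1149 TPM), the T cell list (307 TPM) and the plasma cell list (2700 TPM), but not of the neutrophil list (464 TPM). The part of these cells in its values was not tested. Without it, the members' median log2 fold change was 0.14 in place of -0.09.

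Among the other genes of these pathways, 67 were listed, 56 were tested and 0 were called. By mean log2(TPM + 1), 46 of the 56 were higher in knockout lungs (82.1%, compared with 63.2% of all genes tested), with a median log2 fold change of 0.26, and 6 (10.7%, compared with 12.5% of all genes) reached an unadjusted p of 0.05 or less. The list for BAFF and APRIL signalling held adaptors, kinases and NF-kB subunits downstream of these receptors. None of its 20 tested genes had an unadjusted p of at most 0.05, and 18 had a higher mean. Nfkb2, the precursor of the non-canonical subunit p52, ranged from 9.77 through 28.2 to 77.53 TPM in control and from 22.26 through 38.5 to 53.39 TPM in knockout lungs (log2 fold change 0.41, adjusted p = 0.679 by limma). Bcl2, a survival gene that BAFF can induce, was 1 of the 2 genes of the list with a lower mean, at medians of 3.38 and 2.69 TPM (log2 fold change -0.24, adjusted p = 0.581 by limma). Mcl1, Bcl2l1 and Pim2, also on the list, had the higher mean, with log2 fold changes of 0.35, 0.25 and 0.09.

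The third receptor of the family, BCMA (Tnfrsf17), which binds APRIL on plasma cells, fell under the filter on low values and was looked at for its role beside BAFF-R and TACI. It was listed at 0.48 to 7.45 TPM in control lungs and at 0 to 0.27 TPM in knockout lungs, with 4 of the latter at 0, and the groups did not overlap. An exact permutation test, two-sided and unadjusted, gave p = 0.00216, the smallest it can give. In a limma fit with no filter its adjusted p was 0.376. Ccr10, a homing receptor of plasma cells, also fell under the filter and did not overlap, at 0.58 to 5.44 and 0.17 to 0.52 TPM (exact permutation p = 0.00216, limma adjusted p = 0.250 with no filter). Groups of 6 that do not overlap always give this permutation p, so that it adds nothing to the non-overlap. Of the 65 other pathway genes above 0 in any lung, only Tnfrsf17 and Ccr10 did not overlap. Among 31629 genes above 0 in any lung, 0.601% did not overlap. Of 7 plasma cell markers tested, 6 had a lower mean in knockout lungs, compared with 5568 of all 15148 genes tested. Of these markers 2, Jchain and Mzb1, were called, beside 0.469% of all genes called lower. Xbp1, however, had a log2 fold change of -0.04 (adjusted p = 0.940 by limma) and Sdc1 one of 0.83 (adjusted p = 0.351 by limma). The sums of the list, which holds Tnfrsf17 itself, were 373 to 2700 and 213 to 350 TPM and did not overlap. By median, the largest gene of the list was Jchain in control lungs (352 TPM, and 0.1 TPM in knockout lungs). In knockout lungs it was Xbp1 (143 TPM, and 144 TPM in control lungs), so that the sums rest largely on few genes. The part of plasma cells in the levels of Tnfrsf17 and Ccr10 was not tested.

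The list for lymphotoxin and related TNF family genes had 11 tested genes, 10 with a higher mean, compared with 63.2% of all genes tested. Of them, 3 had an unadjusted limma p of at most 0.05, beside 6.83% of all genes. Tnfsf14 (LIGHT), which shares the lymphotoxin beta receptor with Ltb, ranged from 1.12 through 3.18 to 9.2 TPM in control and from 4.09 through 9.84 to 12.32 TPM in knockout lungs (log2 fold change 1.13, SE 0.36, adjusted p = 0.259 by limma). The TNF receptor Tnfrsf1b had a log2 fold change of 1.66 (adjusted p = 0.376 by limma) and Tnfrsf11a (RANK) one of 0.90 (adjusted p = 0.298 by limma). Lta, the partner of Ltb, was the gene of the list with a lower mean, at medians of 2.20 and 1.04 TPM (log2 fold change -0.73, adjusted p = 0.489 by limma). The receptor itself, Ltbr, was at medians of 70.0 and 79.8 TPM (adjusted p = 0.568 by limma).

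In the lymphoid homing list, 18 of 25 tested genes had a higher mean, compared with 63.2% of all genes tested. The 3 with an unadjusted limma p of at most 0.05 had a lower one, beside 5.71% of all genes. Enpp2 (autotaxin), which makes lysophosphatidic acid and aids lymphocyte entry at high endothelial venules, ranged from 20.77 through 28.6 to 61.43 TPM in control and from 8.16 through 14.8 to 21.57 TPM in knockout lungs. Only knockout replicate 2 exceeded the lowest control lung, and the log2 fold change was -1.10 (SE 0.27, adjusted p = 0.114 by limma). Chst2, a sulfotransferase for L-selectin ligands, had medians of 6.56 and 2.49 TPM (log2 fold change -1.04, adjusted p = 0.140 by limma). Ackr4, a decoy receptor that clears CCL19 and CCL21, had medians of 8.07 and 1.55 TPM (log2 fold change -1.39, adjusted p = 0.304 by limma), although knockout replicate 2, at 13.59 TPM, was the highest of all 12 lungs.

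**Figure D5:**
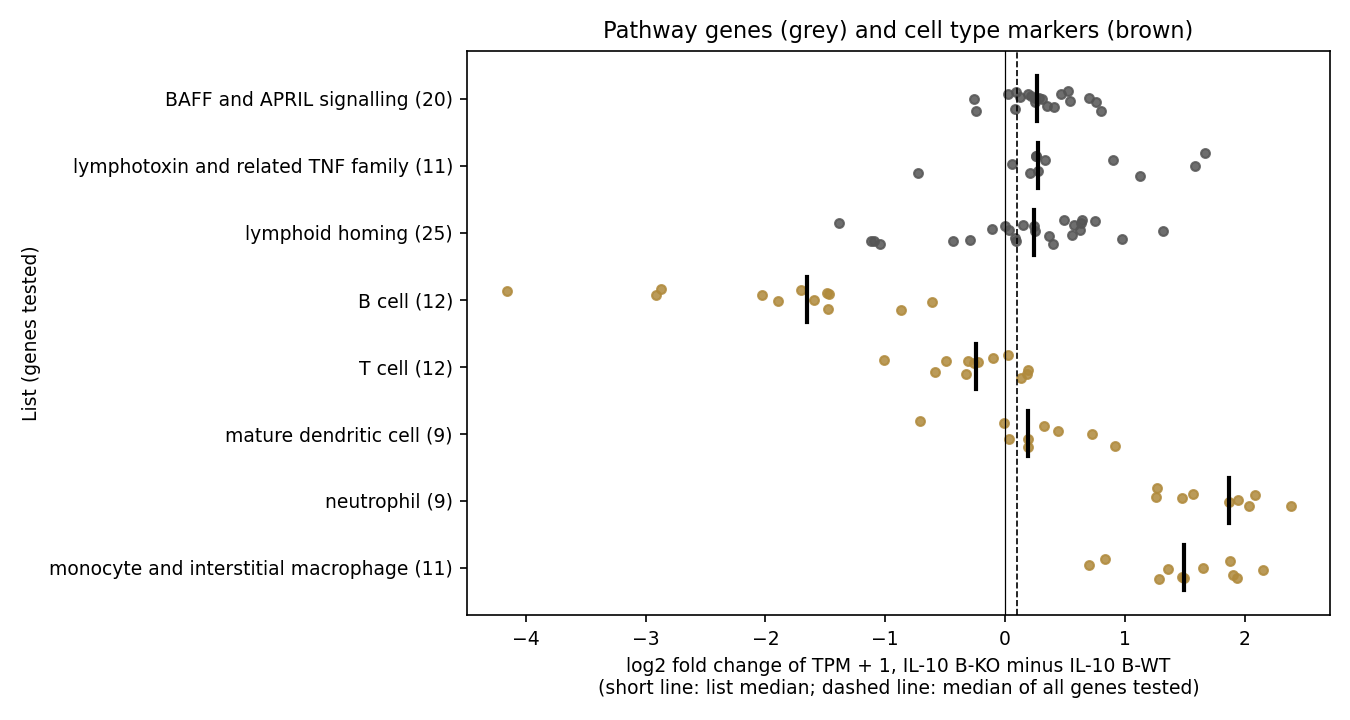
Log2 fold changes (knockout minus control, mean log2(TPM + 1)) of the tested genes of the pathway lists and of the main marker lists, each point a gene and the line the median of the list. The pathway lists have medians of 0.24 to 0.27, the B cell list lies wholly below 0 (median -1.65) and the neutrophil list wholly above 0 (median 1.87).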

How the data were processed

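RNA-seq was analysed from the whole lungs of 12 mice, 6 labelled IL-10 B-WT (control) and 6 labelled IL-10 B-KO (knockout), taken on day 4 of LPS exposure. The authors deposited 1 table of TPM per gene and library, rounded to 2 decimals and computed with RSEM without pooling. The submitters' processing notes name fastp, HISAT, RSEM and GRCm38.p5. Their versions and the annotation release are not given in the sources used here. TPM keep no depth, so no count model was fitted and no counting error can be given. Columns were matched to samples by name, with 0 unused. Each library is a separate mouse.

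Differential expression was tested with limma 3.58.1 (trend) in R 4.3.3 on log2(TPM + 1), for genotype alone. Genes entered if 6 or more libraries had 1 TPM or more (15148 genes), and p was adjusted over them by Benjamini-Hochberg. A call needed an adjusted p up to 0.05 and a log2 fold change of 1 or more in size. Single values were compared by exact permutation tests of mean log2(TPM + 1), two-sided, over 924 arrangements for 6 against 6 (smallest p 0.00216) and 462 for 5 against 6 (smallest p 0.00433). The limma fit and call were tested on simulated data. Alternatives were a pseudocount of 0.1, other filters and scalings, TPM without 394 immunoglobulin genes, array weights, a replicate block and leaving out each library.

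The members and all lists were chosen with earlier results of these data known, and the receptor pairs and the Ccl21 sum after the levels were seen. Named genes are the members, Il10 and Cd79a, markers of a described list, and the 3 genes with the highest Spearman's rho to a member over the 12 lungs. Pathway genes of a described list are named if they had an unadjusted p of at most 0.05, groups that did not overlap, or a role beside a member. Gene coordinates came from GENCODE M21 on GRCm38, and promoters from RefSeq on GRCm38.p6. Permutation tests and likeness used SciPy 1.17.1 with NumPy 2.4.6 and pandas 2.3.3 in Python 3.11.15, transcripts were aligned with edlib 1.3.9.post1, and figures were drawn with matplotlib 3.10.9.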

Additional observations from a re-analysis of the deposited data

Results flagged for a closer look

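In the 20 groups examined (10 members in 2 genotypes), 3 had 1 lung whose gap to the nearest other was large against the range of its group (Dixon's ratio on log2(TPM + 1), above its 95% critical value). Chance alone would pick about 1 in 20 if groups were independent and normally distributed, but these share the same lungs. All 3 were control replicate 2, so that they are 1 lung and not 3 separate events. Tnfrsf13c was at 76.73 TPM there and at 2.16 to 6.12 TPM in the other control lungs (ratio 0.746). Cxcr5 was at 56 TPM and elsewhere at 2.82 to 7.04 TPM (ratio 0.725). Ccl19 was at 141.29 TPM and elsewhere at 1.63 to 8.39 TPM (ratio 0.681). The values of these genes without that lung stand beside each of them.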

How the results depend on the processing

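No member was called under any alternative. Among all genes, 75 were called. This count was 6 with no filter, 39 after quantile normalization, 36 after centring on the median and 318 with array weights (237 lower and 81 higher, against 71 and 4), and ran from 19 (without knockout replicate 1 or 5) to 604 (without control replicate 1) when 1 library was left out. The cause was not tested. With a replicate block it was 45. The shared numbers did not pair the lungs: same-numbered lungs deviated from their group means with correlations of -0.29 to 0.05, and 0 of 6 correlated best with their own number. Of the other pathway genes, array weights called 3 (Enpp2, Chst2 and Ackr4), and leaving out 1 library called 0 to 5, with Tnfsf14, Enpp2, Tnfrsf11a, Tnfrsf1b and Chst2 called without control replicate 1 and Ackr4 without knockout replicate 2. The sign of Tnfrsf13b turned after quantile normalization (-0.0294), median centring (-0.0032) and with array weights (-0.0021), and ran from -0.17 to 0.51 with 1 library left out. That of Ccl21a ran from -0.27 to 0.0877 and was 0.0512 for the summed Ccl21 genes, and that of Ltb ran from -0.52 to 0.29. Median centring moved the median of all genes from 0.10 to -0.01. Tnfrsf13c kept an unadjusted limma p of at most 0.05 in 20 of 20 settings, Cxcr5 in 19 and Tnfsf13 in 14. With 1 library left out, Tnfrsf13c minus Tnfrsf13b (-3.41 with a pseudocount of 0.1) ran from -2.43 to -1.88, Tnfrsf13c minus Tnfsf13b from -2.68 to -1.68 and Cxcr5 minus Cxcl13 from -3.09 to -1.68. Depth is unknown, so that the precision of low values such as Tnfrsf13c in knockout lungs cannot be given.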

Other observations

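Other members shared their order over the 12 lungs with genes of different kinds, given as Spearman's rho with no test. Tnfsf13 was most like Dok1, Irf7 and Lgals3bp (0.979 each), of which Irf7 and Lgals3bp are interferon-responsive genes. Tnfsf13b was most like Nmral1 (0.979), Mettl6 and Spsb3 (0.972 each). Ccl21a was most like Mfap4 (0.951), a protein of elastic fibres, Syn2 (0.937) and Dexi (0.923). Ccl19 had the weakest likeness, with Nr4a3 and Spon2 (0.860 each) and Tpst1 (0.825). The Ccl21d copy of the CCR7 ligand was listed at 32.35 and 32.19 TPM in knockout replicates 2 and 4 and at no more than 0.09 TPM in the other 10 lungs.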
